A study of Mus musculus with 16 samples.

Results

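Small leucine-rich proteoglycans are secreted matrix proteins built around a curved array of leucine-rich repeats. A set of 10 genes of this family was followed, chosen by name from the rows of the expression tables: Dcn, Bgn, Lum, Fmod, Prelp, Ogn, Omd, Epyc, Chad and Aspn. All 10 were found among the 55450 genes listed, each as 1 row, and all 10 were among the 12976 genes tested, which reached 1 FPKM in no fewer than 4 of 16 libraries. FPKM is the number of mapped fragments scaled to gene length and to library size. Each of 9 genes was at or above 1 FPKM in all 16 libraries, and Aspn was in 15.

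RNA was sequenced from primary mouse articular chondrocytes, the cells that make and maintain joint cartilage, in 4 groups of 4 libraries. All cells were kept at 3% oxygen with 10% fetal bovine serum. The bleomycin group had 4 h of hyaluronidase at 4 U/mL, then 24 h of the DNA-breaking drug bleomycin at 50 µg/mL, then 5 days in fresh medium. The doxorubicin group had 5 days of the topoisomerase poison doxorubicin at 50 nM, with new medium every 48 h. Interleukin-1 beta (IL-1β), an inflammatory cytokine, was given at 1 ng/mL for 24 h. The vehicle group had an equal volume of phosphate-buffered saline for 24 h. The study used both drugs to induce senescence, a lasting growth arrest, and IL-1β as an acute inflammatory stress for contrast. The labels give neither strain nor age of the mice, neither whether vehicle cells also had hyaluronidase nor when they were harvested relative to the drug groups, and not whether libraries came from separate cultures. Time in culture and drug therefore cannot be told apart, and p-values measure only the spread between these libraries, which may be technical.

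In cartilage these proteins sit on the surface of collagen fibrils, where they limit fibril thickness and space the fibrils. They fall into classes. Decorin (Dcn) and biglycan (Bgn) carry chondroitin or dermatan sulfate chains and bind transforming growth factor beta, and asporin (Aspn) belongs to the same class but lacks the site for such a chain. Lumican (Lum), fibromodulin (Fmod), osteomodulin (Omd) and PRELP (Prelp) form the class that contains the keratan sulfate carriers. Epiphycan (Epyc) and osteoglycin (Ogn) form another, and chondroadherin (Chad) belongs to a class of proteins that lack the usual amino-terminal extension.

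Estimated from the steps between low FPKM values, depth was 15.8 to 22.1 M fragments (M, mega) per library. The summed FPKM of all genes was 405159 to 423830 in the bleomycin, doxorubicin and vehicle libraries and 521294 to 559190 in the IL-1β libraries. The 10 chondrocyte markers were all expressed. Their summed FPKM was 8925 to 11856 with bleomycin, 9075 to 11923 with doxorubicin, 5334 to 5782 with IL-1β and 11934 to 15907 with vehicle, mostly from Col2a1. Of the markers of other cells, 4 of 4 endothelial genes (Pecam1, Cdh5, Kdr, Tek) and 4 of 6 macrophage genes (Ptprc, Adgre1, Csf1r, Itgam) were under 1 FPKM in all 16 libraries. In bulk RNA, fewer cells of a type and less RNA per cell cannot be told apart.

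Together the 10 genes summed to 3924 ± 239 FPKM with bleomycin, 4461 ± 254 with doxorubicin and 1967 ± 21.6 with IL-1β, against 2220 ± 136 with vehicle (SD, n = 4 each). As a share of all FPKM this was 0.949% with bleomycin, 1.08% with doxorubicin, 0.365% with IL-1β and 0.533% with vehicle. The make-up of the sum differed too. Dcn supplied 28.9% of it with bleomycin, 31.7% with doxorubicin and 41.1% with IL-1β, against 22.1% with vehicle, where Bgn led with 26.6%.

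**Figure D1:**
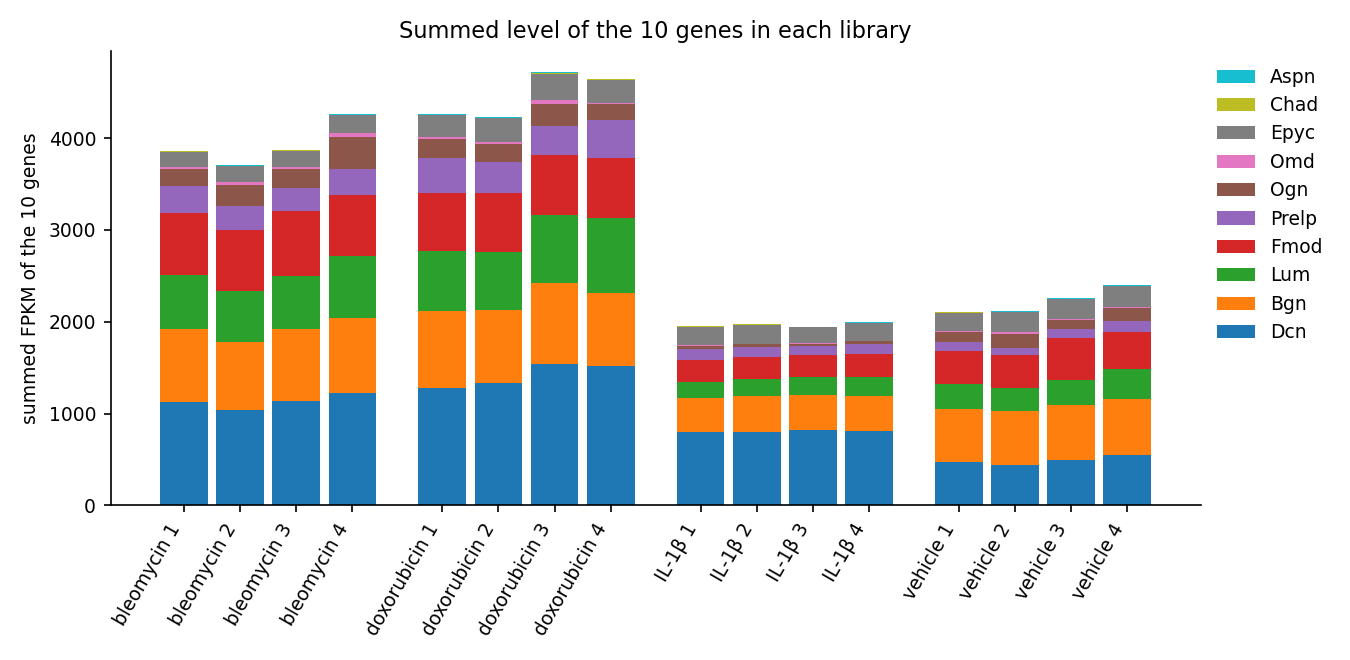
Summed FPKM of the 10 genes in each of the 16 libraries (vertical axis, linear), with each gene's FPKM as a coloured segment. The drug libraries reach 3703 to 4715 FPKM, the IL-1β libraries 1946 to 1995 and the vehicle libraries 2111 to 2399, and the Dcn segment is the largest in every treated library.

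The order of the levels was not the same in the 4 groups. With bleomycin it ran Dcn, Bgn, Fmod, Lum, Prelp, Ogn, Epyc, Omd, Aspn and Chad, and the libraries of Fmod and Lum, of Prelp and Ogn, of Ogn and Epyc, and of Aspn and Chad overlapped. With doxorubicin Lum stood above Fmod and Epyc above Ogn, but the libraries of each of these pairs overlapped, as did those of Bgn and Lum and of Aspn and Chad. With IL-1β the order was Dcn, Bgn, Fmod, Epyc, Lum, Prelp, Ogn, Chad, Omd and Aspn, with overlap between Epyc and Lum, Chad and Omd, and Omd and Aspn. In vehicle Bgn stood above Dcn without overlap, and only Dcn and Fmod, and Ogn and Prelp, overlapped among the neighbours. FPKM is scaled to length, but the lengths taken for these genes are not given, so the order between genes is uncertain to that extent.

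**Figure D2:**
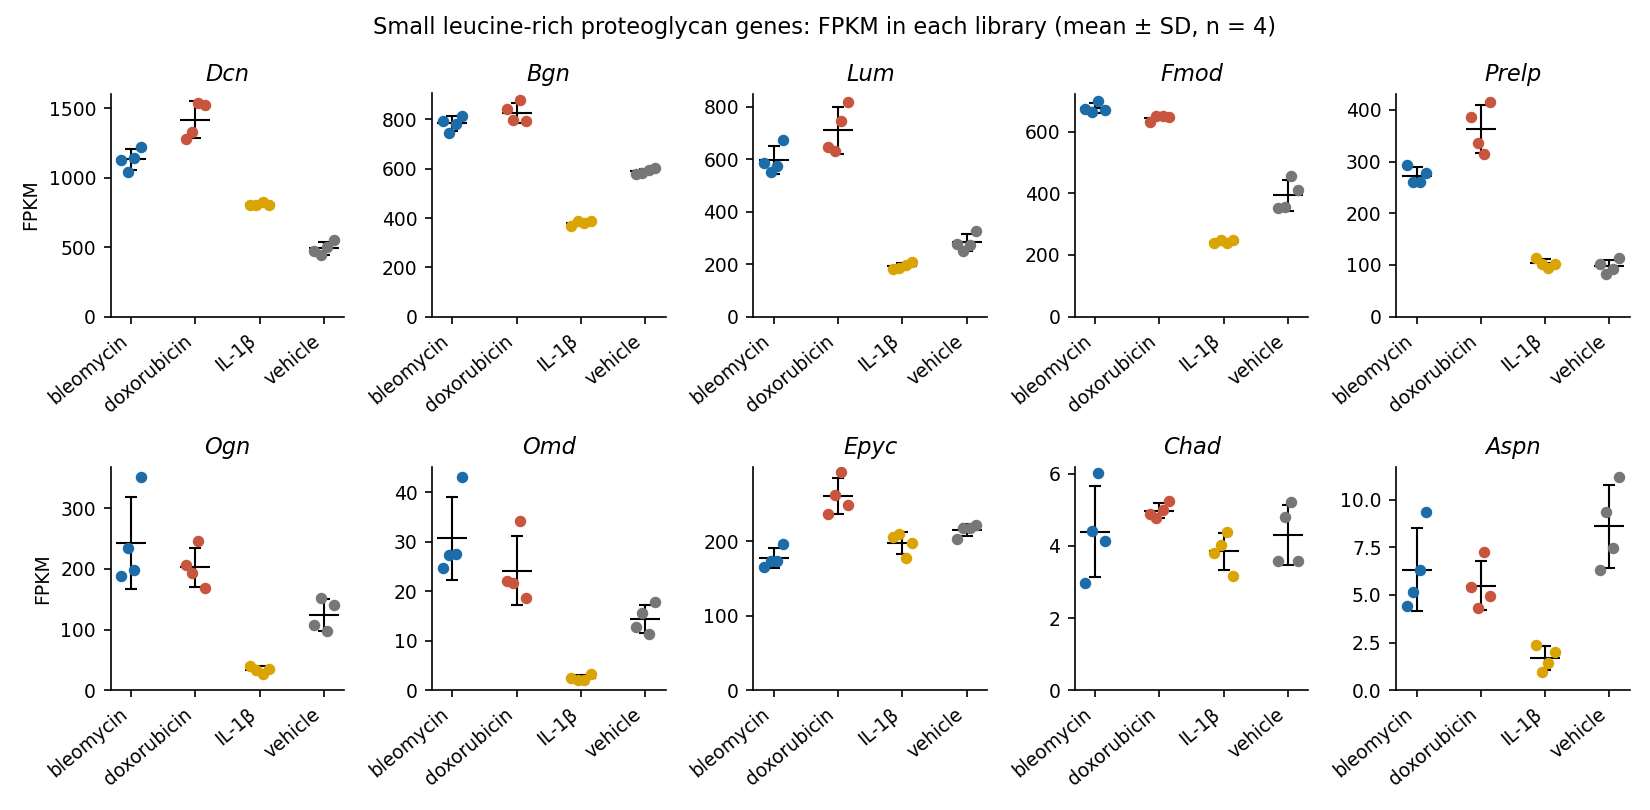
FPKM of each gene in every library (points; linear axes that start at 0 and differ between panels), with mean ± SD of 4 libraries per group. Dcn, Bgn, Lum, Fmod, Prelp, Ogn and Omd stand higher in all 8 drug libraries than in any vehicle library, and Bgn, Lum, Fmod, Ogn, Omd and Aspn stand lower in all 4 IL-1β libraries than in any vehicle library.

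After bleomycin, 7 of the 10 genes rose, Epyc fell, and Chad and Aspn did not pass the test (limma on log2(FPKM + 1), adjusted p under 0.05). Over all genes tested 46.9% changed, 27.9% upward and 19.0% downward. Of the 7, Dcn, Lum, Prelp and Omd rose at least 2-fold, a change that 2.63% of all genes tested showed. The median log2 difference of the 10 was 0.87, beside 0.06 over all genes tested. After doxorubicin, 8 rose, Aspn fell and Chad did not pass, where 48.3% of all genes changed (25.4% upward, 22.8% downward). Dcn, Lum and Prelp were the 3 that rose at least 2-fold, as 3.66% of all genes did, and the median was 0.71 beside 0.02. IL-1β gave another picture: Dcn rose, Bgn, Lum, Fmod, Ogn, Omd and Aspn fell, and Prelp, Epyc and Chad did not pass, where 43.0% of all genes changed (24.5% upward, 18.4% downward). Ogn, Omd and Aspn fell at least 2-fold, as 1.76% of all genes did, and the median was -0.59 beside 0.03. These 3 comparisons share the vehicle libraries, so they are not independent of each other.

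**Figure D3:**
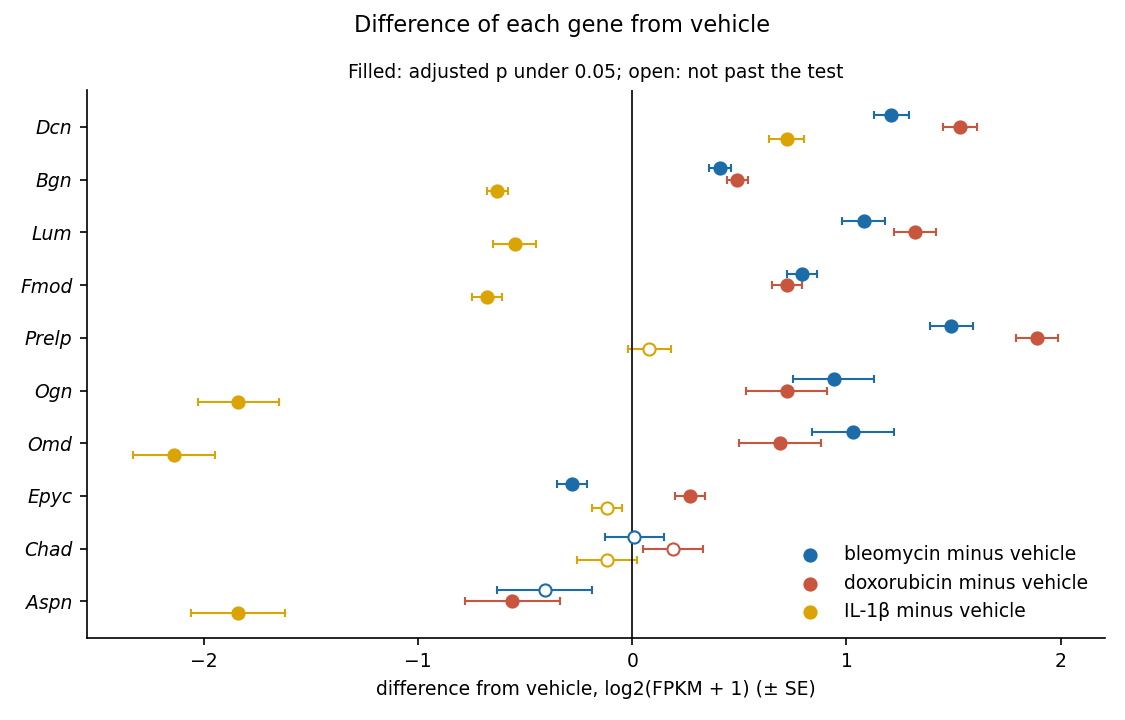
Log2 difference of each gene from vehicle on the log2(FPKM + 1) scale (horizontal axis, ± SE), with bleomycin, doxorubicin and IL-1β as separate points. Filled points passed the test; Dcn lies right of 0 in all 3 comparisons, and the bleomycin and doxorubicin points of Bgn, Lum, Fmod, Ogn and Omd lie right of 0 with the IL-1β points left of it.

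Decorin was the gene raised by every treatment. Dcn (ENSMUSG00000019929.16, GRCm38 chr10:97479609-97518143, plus strand, protein coding) had 1125, 1042, 1142 and 1223 FPKM in the bleomycin libraries, 1279, 1331, 1539 and 1522 in the doxorubicin libraries and 801, 800, 826 and 806 in the IL-1β libraries, against 470, 444, 500 and 554 in the vehicle libraries. No library of one group reached the range of another. The mean was 2.3-fold that of vehicle with bleomycin (log2 difference 1.21 ± 0.08 SE, adjusted p = 5.19e-09), 2.88-fold with doxorubicin (1.53 ± 0.08, adjusted p = 2.5e-10) and 1.64-fold with IL-1β (0.72 ± 0.08, adjusted p = 9.4e-07).

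Biglycan, the closest relative of decorin and a ligand of Toll-like receptors when released from the matrix, went up with the drugs and down with IL-1β. Bgn (ENSMUSG00000031375.17, GRCm38 chrX:73483602-73495933, plus strand, protein coding) had 795, 743, 783 and 814 FPKM with bleomycin, 840, 796, 879 and 794 with doxorubicin and 367, 389, 380 and 388 with IL-1β, against 579, 583, 594 and 601 with vehicle. The drug groups overlapped with each other and not with vehicle. Log2 differences were 0.41 ± 0.05 with bleomycin (adjusted p = 2.75e-06), 0.49 ± 0.05 with doxorubicin (adjusted p = 3.26e-07) and -0.63 ± 0.05 with IL-1β (adjusted p = 1.54e-08).

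Because a ratio of 2 genes in 1 library is free of that library's scaling, 4 such ratios were tested against vehicle. The Dcn to Bgn ratio was 1.44 ± 0.0461 with bleomycin, 1.72 ± 0.164 with doxorubicin and 2.12 ± 0.0638 with IL-1β, against 0.834 ± 0.0672 with vehicle (SD, n = 4 each). By FPKM, all 4 vehicle libraries had more Bgn than Dcn, and all 12 treated libraries the reverse. Which of the 2 genes is higher also rests on the lengths taken for them, which are not given. Each difference gave p = 0.0286 by a two-sided exact permutation test, the smallest that 4 against 4 libraries allow, and 0.0381 after Benjamini-Hochberg adjustment over 12 ratio tests. The Dcn to Lum ratio was 1.9 ± 0.0694 with bleomycin (adjusted exact permutation p = 0.0686), 2 ± 0.11 with doxorubicin (0.0381) and 4.21 ± 0.257 with IL-1β (0.0381), against 1.74 ± 0.0626 with vehicle. The ratio of these chromosome 10 neighbours was highest with IL-1β, which raised Dcn and lowered Lum.

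**Figure D4:**
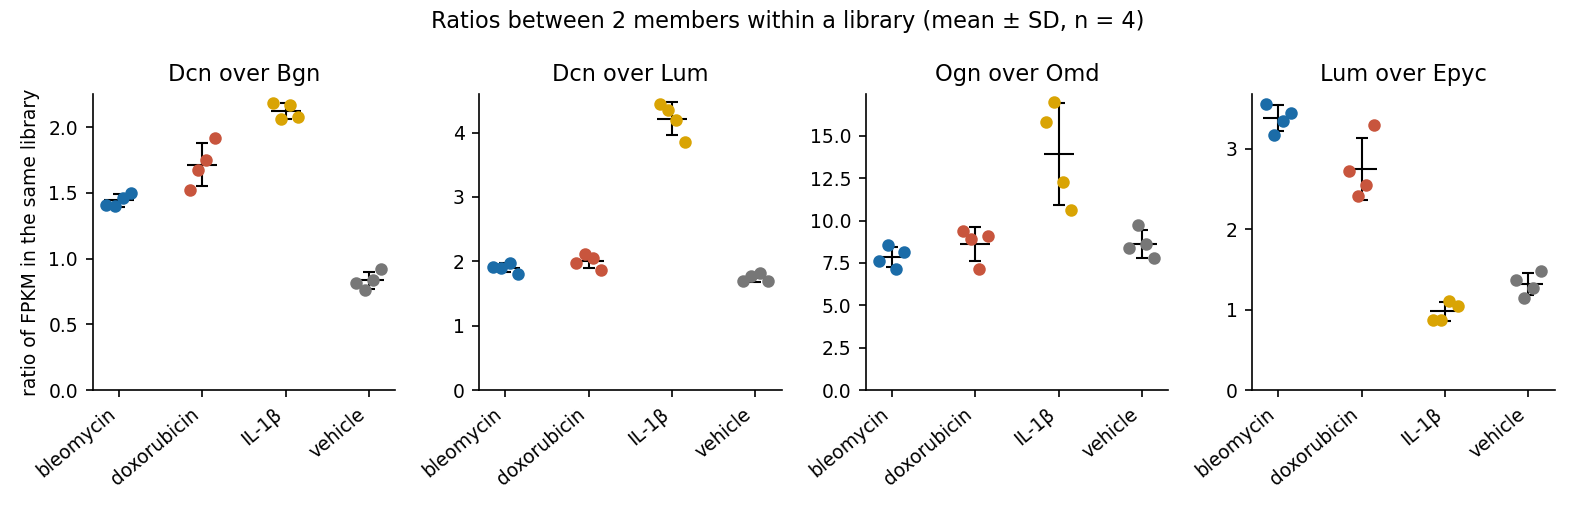
Ratio of FPKM of 2 genes within each library (points; linear axes from 0, one panel per ratio), with mean ± SD of 4 libraries per group. Dcn over Bgn is above 1 in all 12 treated libraries and below 1 in the 4 vehicle libraries, and Dcn over Lum is 3.86 to 4.44 with IL-1β and 1.69 to 1.82 with vehicle.

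All 4 genes of the keratan sulfate class rose with both drugs, and 3 of them fell with IL-1β. Lumican, which limits lateral growth of collagen fibrils, is encoded by Lum (ENSMUSG00000036446.5, GRCm38 chr10:97565128-97572703, plus strand, protein coding). It had 586, 551, 576 and 674 FPKM with bleomycin, 646, 630, 748 and 819 with doxorubicin and 180, 184, 197 and 209 with IL-1β, against 277, 251, 275 and 328 with vehicle. All drug libraries lay above and all IL-1β libraries below the vehicle range. Log2 differences were 1.08 ± 0.10 with bleomycin (adjusted p = 2.01e-07), 1.32 ± 0.10 with doxorubicin (adjusted p = 1.34e-08) and -0.55 ± 0.10 with IL-1β (adjusted p = 0.000196).

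Fibromodulin, which competes with lumican for a site on type I collagen and is sulfated on tyrosines, followed the same directions. Fmod (ENSMUSG00000041559.7, GRCm38 chr1:134037254-134048277, plus strand, protein coding) had 674, 663, 700 and 669 FPKM with bleomycin, 632, 649, 649 and 648 with doxorubicin and 238, 247, 238 and 248 with IL-1β, against 351, 355, 456 and 409 with vehicle. Its spread within each treated group was narrow, and the vehicle libraries varied most. Log2 differences were 0.79 ± 0.07 with bleomycin (adjusted p = 1.23e-07), 0.72 ± 0.07 with doxorubicin (adjusted p = 2.42e-07) and -0.68 ± 0.07 with IL-1β (adjusted p = 4.43e-07).

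PRELP, whose basic amino-terminal stretch binds heparan sulfate, had the largest drug response of the 10 genes in these libraries. Prelp (ENSMUSG00000041577.5, GRCm38 chr1:133910304-133921414, minus strand, protein coding) had 293, 260, 260 and 278 FPKM with bleomycin, 386, 336, 314 and 415 with doxorubicin and 113, 101, 93.9 and 102 with IL-1β, against 101, 82.8, 92.0 and 113 with vehicle. The IL-1β and vehicle ranges overlapped, and both drug groups stood apart from them. The mean was 2.81-fold that of vehicle with bleomycin (log2 difference 1.49 ± 0.10, adjusted p = 8.08e-09) and 3.73-fold with doxorubicin (1.89 ± 0.10, adjusted p = 3.68e-10). With IL-1β the difference was 0.08 ± 0.10 (adjusted p = 0.53), and on a TPM scale, which sets every library's total equal, it was -0.29 and passed the test (adjusted p = 0.0187).

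Osteomodulin and osteoglycin, first described in bone matrix, had the widest range across groups. Omd (ENSMUSG00000048368.9, GRCm38 chr13:49582462-49592822, plus strand, protein coding) had 24.7, 27.4, 27.6 and 43.1 FPKM with bleomycin, 22.1, 21.6, 34.3 and 18.6 with doxorubicin and 2.54, 2.0, 2.14 and 3.22 with IL-1β, against 12.7, 15.6, 11.3 and 17.9 with vehicle. The drug ranges overlapped with each other and lay above vehicle, and IL-1β lay far below. Omd was 5.81-fold lower with IL-1β (log2 difference -2.14 ± 0.19, adjusted p = 1.83e-07) and rose with bleomycin (1.03 ± 0.19, adjusted p = 0.000421) and doxorubicin (0.69 ± 0.19, adjusted p = 0.00769).

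Ogn (ENSMUSG00000021390.6, GRCm38 chr13:49608046-49624501, plus strand, protein coding) had 188, 234, 198 and 352 FPKM with bleomycin, 206, 193, 246 and 169 with doxorubicin and 40.1, 34, 26.4 and 34.2 with IL-1β, against 107, 152, 97.4 and 140 with vehicle. Again the groups stood apart from vehicle, with the widest scatter in bleomycin. Ogn was 3.68-fold lower with IL-1β (log2 difference -1.84 ± 0.19, adjusted p = 8.28e-07) and higher with bleomycin (0.94 ± 0.19, adjusted p = 0.000745) and doxorubicin (0.72 ± 0.19, adjusted p = 0.00516). Ogn and Omd shared their high libraries: bleomycin replicate 4 and doxorubicin replicate 3 were the highest of their group for both genes and for Aspn. The Ogn to Omd ratio was 7.87 ± 0.604 with bleomycin (adjusted exact permutation p = 0.187), 8.62 ± 0.995 with doxorubicin (0.943) and 13.9 ± 2.96 with IL-1β (0.0381), against 8.64 ± 0.818 with vehicle.

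Asporin, which in human cartilage is known as an inhibitor of transforming growth factor beta, was a minor transcript. Aspn (ENSMUSG00000021388.14, GRCm38 chr13:49544443-49567565, plus strand, protein coding) had 4.42, 5.17, 6.3 and 9.37 FPKM with bleomycin, 5.44, 4.3, 7.27 and 4.92 with doxorubicin and 2.36, 0.954, 1.43 and 2.02 with IL-1β, against 6.3, 9.37, 7.48 and 11.2 with vehicle. Both drug groups overlapped with vehicle, whereas the IL-1β libraries all lay below it. Aspn was 5.09-fold lower with IL-1β (log2 difference -1.84 ± 0.22, adjusted p = 3.63e-06). It fell with doxorubicin by a margin just past the test (-0.56 ± 0.22, adjusted p = 0.0435), a call lost on the TPM scale, with smaller pseudocounts, with no filter and without any 1 of 7 libraries (bleomycin 3, doxorubicin 1, 2 or 4, IL-1β 3, vehicle 2 or 4), where the difference was -0.56 to -0.43. With bleomycin it did not pass (-0.41 ± 0.22, adjusted p = 0.136), but without bleomycin replicate 4 it did (-0.59, adjusted p = 0.0309). Cenpp, a centromere protein gene at 6.05, 3.02, 8.09 and 9.38 FPKM on average with bleomycin, doxorubicin, IL-1β and vehicle, overlaps Aspn, Omd and Ogn on the opposite strand. The overlap is one of whole gene spans, and exons were not compared. Whether the authors' counting used strand is not given in the sources used here, so reads from Cenpp and from these 3 genes may not have been told apart. The doubt weighs on Aspn in every group and on Omd with IL-1β, where its mean of 2.48 FPKM was below that of Cenpp, so the differences of Omd that involve IL-1β are uncertain. Ogn, at a mean of 33.7 FPKM with IL-1β, was above Cenpp in every group.

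Epiphycan, known from the growth plate, went in opposite directions with the drugs. Epyc (ENSMUSG00000019936.10, GRCm38 chr10:97644068-97682454, plus strand, protein coding) had 165, 174, 173 and 196 FPKM with bleomycin, 237, 262, 293 and 248 with doxorubicin and 206, 210, 177 and 198 with IL-1β, against 203, 218, 217 and 222 with vehicle. Bleomycin lay below and doxorubicin above vehicle, without overlap, and IL-1β overlapped with vehicle. Epyc fell with bleomycin (log2 difference -0.28 ± 0.07, adjusted p = 0.00434), rose with doxorubicin (0.27 ± 0.07, adjusted p = 0.00575) and did not pass with IL-1β (-0.12 ± 0.07, adjusted p = 0.196). On the TPM scale Epyc passed with IL-1β (-0.49), and after quantile normalization too (-0.23). The Lum to Epyc ratio was 3.38 ± 0.161 with bleomycin, 2.75 ± 0.388 with doxorubicin and 0.979 ± 0.122 with IL-1β, against 1.32 ± 0.14 with vehicle (adjusted exact permutation p = 0.0381 each).

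Chondroadherin, a cartilage protein that binds type II collagen and an integrin on chondrocytes, was low and did not pass in any of the 6 comparisons on the FPKM scale with all 16 libraries. Chad (ENSMUSG00000039084.8, GRCm38 chr11:94565047-94569127, plus strand, protein coding) had 2.97, 4.42, 6.03 and 4.13 FPKM with bleomycin, 4.88, 4.76, 4.99 and 5.24 with doxorubicin and 3.81, 4.03, 4.38 and 3.17 with IL-1β, against 3.58, 4.8, 5.2 and 3.59 with vehicle. All 3 treated groups overlapped with vehicle. Log2 differences were 0.01 ± 0.14 with bleomycin (adjusted p = 0.966), 0.19 ± 0.14 with doxorubicin (adjusted p = 0.308) and -0.12 ± 0.14 with IL-1β (adjusted p = 0.541). On the TPM scale Chad passed as lower with IL-1β than with vehicle (-0.47, adjusted p = 0.0175). There it also passed for bleomycin minus IL-1β (0.48, adjusted p = 0.0132) and doxorubicin minus IL-1β (0.68, adjusted p = 0.00131). Acsf2, an acyl-CoA synthetase gene at 3.39 to 4.04 FPKM on average in the 4 groups, overlaps Chad on the opposite strand, so Chad is uncertain in the same way as Aspn.

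Set directly against each other, bleomycin and doxorubicin differed on 3 of the 10 genes, all lower with bleomycin, where 10.0% of all genes differed (5.85% higher, 4.18% lower). A hyaluronidase step is stated for the bleomycin group only, and the schedules of the 2 groups differ, so neither can be told apart from the drug. Epyc was lower by a log2 difference of -0.55 ± 0.07 (adjusted p = 0.000169), Prelp by -0.40 ± 0.10 (adjusted p = 0.0151) and Dcn by -0.32 ± 0.08 (adjusted p = 0.0128). The Prelp call was lost without doxorubicin replicate 4 (-0.34, adjusted p = 0.0516). Bgn, Lum, Fmod, Ogn, Omd, Chad and Aspn did not pass, with differences between -0.25 (Lum) and 0.34 (Omd). With a replicate block, which treats same-numbered libraries as matched, Lum passed as lower too (-0.25 ± 0.05, adjusted p = 0.00617). In that fit 11.5% of all genes differed. Against IL-1β, 8 of the 10 were higher with bleomycin, where 52.8% of all genes differed (27.6% higher, 25.2% lower), and 7 of them at least 2-fold, beside 3.30% of all genes. Of these, Omd had 12.4-fold the IL-1β level (log2 difference 3.17 ± 0.19, adjusted p = 1.36e-09), Ogn 7.21-fold (2.78 ± 0.19, adjusted p = 5.01e-09), Aspn 3.74-fold, Lum 3.1-fold, Fmod 2.78-fold, Prelp 2.66-fold and Bgn 2.06-fold. Dcn was 1.4-fold higher (0.48 ± 0.08, adjusted p = 5.41e-05), and Epyc did not pass (-0.16 ± 0.07, adjusted p = 0.0716). With doxorubicin 9 of the 10 were higher than with IL-1β, where 54.2% of all genes differed (25.1% higher, 29.2% lower), and 7 of them at least 2-fold, beside 3.89% of all genes. Chad was the exception (0.31 ± 0.14, adjusted p = 0.0864), although its libraries did not overlap. It passed without bleomycin replicate 1 or 3, with only the 2 groups compared and with the replicate block (0.31 each), and on the TPM scale (0.68). For bleomycin minus IL-1β, the sign of Epyc depended on scaling: it passed as higher on the TPM scale (0.22, adjusted p = 0.0276) and as lower with median-of-ratios scaling (-0.19, adjusted p = 0.0388). It also passed as lower without bleomycin replicate 4 (-0.21), doxorubicin replicate 3 (-0.16) or IL-1β replicate 3 (-0.21).

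Scaling bears on these directions. On the TPM scale the median of all genes was -0.31 for IL-1β minus vehicle, beside 0.03 on the FPKM scale. With TPM 62.7% of all genes were called, beside 43.0% with FPKM. Of the called genes 16.1% were higher with IL-1β, beside 57.1% on the FPKM scale. On the TPM scale 1 of the 10 genes rose with IL-1β, Dcn at 0.35, and the other 9 fell. Their falls ran from Prelp at -0.29, about the shift of all genes, to Omd at -2.66. Every gene of the 10 called in one of the 6 comparisons had the same direction under TPM, median-of-ratios and quantile scaling. For bleomycin minus vehicle 59.5% of called genes were higher, beside 49.9% with median-of-ratios scaling and 48.3% after quantile normalization. The calls of Dcn, Bgn, Lum, Fmod, Prelp, Ogn and Omd against vehicle with both drugs held under each of these scalings.

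In the genome, 8 of the 10 genes lie in groups. Dcn, Lum and Epyc lie on chromosome 10 in that order, 47 kb apart (Dcn to Lum), with the cornea and tendon gene Kera, under 1 FPKM in all 16 libraries, between Lum and Epyc. All are on the plus strand, and they did not move alike: with IL-1β Dcn rose, Lum fell and Epyc did not pass. On chromosome 13, Ecm2 (a related leucine-rich repeat gene), Aspn, Omd and Ogn follow each other at gaps of 11.7, 14.9 and 15.2 kb, again on the plus strand. All 4 fell with IL-1β, as 18.4% of all genes did, Ecm2 by the smallest amount (-0.40 ± 0.13, adjusted p = 0.0203). Ecm2 was near the filter of 1 FPKM, at 0.705 ± 0.113 FPKM with IL-1β against 1.27 ± 0.339 with vehicle (SD). With doxorubicin Ecm2 (0.36 ± 0.13, adjusted p = 0.0295), Omd and Ogn rose and Aspn fell, though the call of Aspn was lost under several alternatives. On chromosome 1, Prelp and Fmod are 116 kb apart on opposite strands, and Fmod fell with IL-1β while Prelp did not pass, except on the TPM scale, where it fell.

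**Figure D5:**
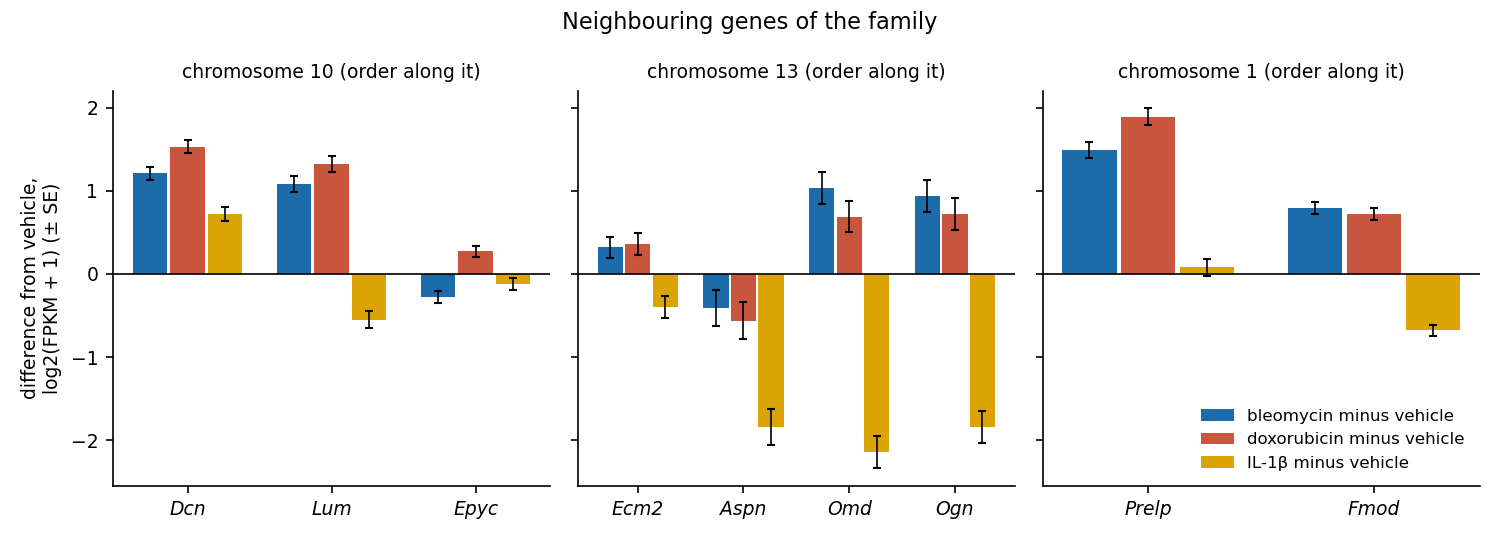
Log2 difference from vehicle on the log2(FPKM + 1) scale (vertical axis, ± SE) for neighbouring family genes, ordered along chromosomes 10, 13 and 1, with bars for bleomycin, doxorubicin and IL-1β. All 4 chromosome 13 genes have an IL-1β bar below 0, from -0.40 for Ecm2 to -2.14 for Omd, while Dcn and Lum on chromosome 10 have IL-1β bars on opposite sides of 0.

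The promoters of the 3 chromosome 13 genes that fell at least 2-fold with IL-1β are shown for that reason. RefSeq promoter entries (GRCm38.p6) matched 8 of the 10 genes, all but Dcn and Lum. Each line gives the 250 bases before the RefSeq transcription start, 5′ to 3′ on the plus strand, from chr13:49607765-49608014 for Ogn, chr13:49582212-49582461 for Omd and chr13:49544193-49544442 for Aspn. Capitals mark matches to the motifs searched on both strands: a TATA box (TATAAA), an AP-1 element (TGANTCA), a TEAD element (GGAATG) and the NF-kB consensus.
Ogn: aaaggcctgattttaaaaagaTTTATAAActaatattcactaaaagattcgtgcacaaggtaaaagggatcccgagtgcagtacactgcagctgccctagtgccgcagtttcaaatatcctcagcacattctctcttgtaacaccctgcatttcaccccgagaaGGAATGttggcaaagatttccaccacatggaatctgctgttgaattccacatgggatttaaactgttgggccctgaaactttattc
Omd: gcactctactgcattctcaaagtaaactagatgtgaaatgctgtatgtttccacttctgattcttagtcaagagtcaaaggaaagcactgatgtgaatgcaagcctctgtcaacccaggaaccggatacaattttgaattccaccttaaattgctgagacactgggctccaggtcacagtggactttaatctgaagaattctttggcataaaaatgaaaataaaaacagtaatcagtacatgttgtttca
Aspn: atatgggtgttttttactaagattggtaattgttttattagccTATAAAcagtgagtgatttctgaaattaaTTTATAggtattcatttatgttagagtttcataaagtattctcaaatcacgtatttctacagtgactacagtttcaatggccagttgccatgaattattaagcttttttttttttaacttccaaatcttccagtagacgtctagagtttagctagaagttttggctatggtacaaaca
Ogn held TATAAA at -229 to -224 on the minus strand and at -227 to -222 on the plus strand, 2 matches that overlap, and GGAATG at -86 to -81, counted from the base before the start as -1. Aspn held TATAAA at -207 to -202 on the plus strand and at -178 to -173 on the minus strand, and Omd held none of the 4 motifs. Of all 32851 RefSeq windows of this length, 12.4% held TATAAA, 12.6% GGAATG, 6.75% TGANTCA and 7.25% the NF-kB consensus. No motif of this search was in all 3 windows; a match is a description of letters, not of a bound site, and a window without a match says only that it lacks these letters.

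The genes whose values ran closest to those family members with the widest ranges were found over the 16 libraries, by the root-mean-square difference of centred log2 values. For Omd these were A2m (0.312), Frzb (0.319) and Chrdl1 (0.321). Ogn had Timp3 (0.29) first, then A2m (0.296) and Chrdl1 (0.302). Timp3, which encodes an inhibitor of matrix metalloproteinases, averaged 1331 FPKM with bleomycin, 1250 with doxorubicin and 215 with IL-1β, against 960 with vehicle. Frzb, which encodes a secreted Wnt antagonist of cartilage, averaged 15.2, 13 and 1.6 FPKM in those treated groups, against 8.34 with vehicle. Prelp ran closest to Gda (0.0927), Ddx58 (0.137) and Rnase4 (0.143), and Lum to Ahr (0.14), Thbd (0.142) and Ecrg4 (0.144).

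Of 13 genes for collagens that these proteoglycans bind, 2 rose and 5 fell with bleomycin, 1 rose and 7 fell with doxorubicin, and 13 fell with IL-1β, 8 of them at least 2-fold. Over all genes tested 27.9% rose and 19.0% fell with bleomycin, 25.4% and 22.8% with doxorubicin, and 24.5% and 18.4% with IL-1β, and the counts of this and the following lists are to be read against these shares. The median log2 differences of the collagens were -0.13, -0.19 and -1.27, beside 0.06, 0.02 and 0.03 over all genes. Col3a1, a fibrillar collagen of stroma, rose with bleomycin (0.61 ± 0.07, adjusted p = 2.64e-06) and doxorubicin (0.79 ± 0.07, adjusted p = 1.16e-07) and fell with IL-1β (-1.57 ± 0.07, adjusted p = 2.97e-11). Col2a1, the main cartilage collagen, fell with bleomycin (-0.49 ± 0.10, adjusted p = 0.000935), doxorubicin (-0.46 ± 0.10, adjusted p = 0.00142) and IL-1β (-1.17 ± 0.10, adjusted p = 1.3e-07). After quantile normalization its bleomycin difference was 0.00. The largest IL-1β decreases on this list were those of Col14a1 (-1.68 ± 0.16, adjusted p = 3.11e-07) and Col1a2 (-1.66 ± 0.10, adjusted p = 9.01e-10). Col11a2, a cartilage fibril collagen, fell with both drugs (-0.62 ± 0.14 with bleomycin, adjusted p = 0.00213).

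Of 22 tested genes for enzymes of the linkage region and chondroitin or dermatan sulfate chains, 8 rose and 4 fell with bleomycin, 5 rose and 4 fell with doxorubicin, and 2 rose and 10 fell with IL-1β. With the drugs these counts were near the shares over all genes, 27.9% up and 19.0% down with bleomycin and 25.4% and 22.8% with doxorubicin, and the IL-1β falls compare with 18.4% of all genes. The medians were 0.13, 0.06 and -0.13, beside 0.06, 0.02 and 0.03 over all genes. On the TPM scale, where the median of all genes was -0.31 and 62.7% of all genes were called, 0 rose and 18 fell with IL-1β. Chpf, a chondroitin polymerizing factor, rose with bleomycin (1.09 ± 0.20, adjusted p = 0.000371) and doxorubicin (0.78 ± 0.20, adjusted p = 0.00465). With IL-1β Chst11, a chondroitin 4-O-sulfotransferase, fell (-0.79 ± 0.07, adjusted p = 2e-07), as did Csgalnact1, which starts chondroitin chains (-0.78 ± 0.05, adjusted p = 6.65e-09), and the xylose kinase Fam20b (-0.75 ± 0.06, adjusted p = 1.47e-08). Of 11 genes for keratan sulfate chain enzymes 8 were tested, and B3gnt7, Chst4 and Chst5 were not. Of the 8 tested, 7 rose with bleomycin and 6 with doxorubicin, and none fell, while 5 rose and 1 fell with IL-1β (3 and 2 on the TPM scale). The shares upward over all genes were 27.9%, 25.4% and 24.5%, and the medians of the list were 0.39, 0.39 and 0.32. The one that fell was Chst1, the keratan sulfate galactose sulfotransferase (-0.66 ± 0.12, adjusted p = 0.000266), which rose with bleomycin (0.56 ± 0.12, adjusted p = 0.00109) and doxorubicin (0.85 ± 0.12, adjusted p = 1.97e-05). Of 6 genes of sulfate donor supply and tyrosine sulfation, 2 rose and 2 fell with bleomycin, 1 rose and 2 fell with doxorubicin, and 1 rose and 3 fell with IL-1β. With IL-1β 0 of the 6 rose under TPM, median-of-ratios or quantile scaling, and 5 fell on the TPM scale. Papss2 and Papss1, which make the sulfate donor, fell in all 3 comparisons. Papss2 fell by 1.10 with bleomycin, 0.97 with doxorubicin and 1.41 with IL-1β on the log2 scale (adjusted p = 4.18e-09, 9.73e-09 and 9.71e-11).

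Of 10 tested genes of proteases that cut these proteins, 9 rose with bleomycin, 8 with doxorubicin and 5 with IL-1β, where 2 fell, beside 27.9%, 25.4% and 24.5% upward over all genes. The list medians were 0.56, 0.73 and 0.28, and on the TPM scale 4 rose and 4 fell with IL-1β. The list includes Pcolce, an enhancer of procollagen processing and not itself a protease. Mmp3, stromelysin, had a log2 difference of 7.39 ± 0.25 with IL-1β (adjusted p = 1.93e-12) and 3.25 ± 0.25 with doxorubicin (adjusted p = 2.58e-08), and it was lower with bleomycin than with doxorubicin (-2.48 ± 0.25, adjusted p = 1.46e-05). Mmp13, a collagenase, rose with IL-1β (3.10 ± 0.19, adjusted p = 1.33e-09). Mmp2, a gelatinase, rose with bleomycin (0.86 ± 0.09, adjusted p = 8.72e-07) and doxorubicin (1.21 ± 0.09, adjusted p = 1.31e-08). Of 13 receptor genes, 6 rose with bleomycin, 8 rose and 1 fell with doxorubicin, and 6 rose and 3 fell with IL-1β (4 and 4 on the TPM scale). Over all genes 27.9% rose and 19.0% fell with bleomycin, 25.4% and 22.8% with doxorubicin, and 24.5% and 18.4% with IL-1β, and the receptor medians were 0.24, 0.31 and 0.25. Tlr2, a receptor of free biglycan, rose with IL-1β (2.72 ± 0.10, adjusted p = 6.29e-12), as did its co-receptor Cd14 (1.80 ± 0.14, adjusted p = 2.67e-08) and the purinergic receptor P2rx4 (1.42 ± 0.10, adjusted p = 1.01e-08).

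Of 9 tested growth factor genes whose products these proteoglycans bind, 4 rose and 2 fell with bleomycin, 4 rose and 1 fell with doxorubicin, and 3 rose and 4 fell with IL-1β, where 46.9%, 48.3% and 43.0% of all genes changed. The medians were 0.09, 0.21 and -0.05. Tgfb1 rose with bleomycin (0.75 ± 0.08, adjusted p = 1.1e-06), doxorubicin (0.55 ± 0.08, adjusted p = 1.96e-05) and IL-1β (0.85 ± 0.08, adjusted p = 1.86e-07). Tgfb2 rose with bleomycin (0.56 ± 0.07, adjusted p = 1.08e-05) and doxorubicin (0.43 ± 0.07, adjusted p = 0.000122) and fell with IL-1β (-0.89 ± 0.07, adjusted p = 4.86e-08). Ccn2 also fell with IL-1β; it encodes a matricellular protein induced by transforming growth factor beta (-1.72 ± 0.07, adjusted p = 1.04e-11). Of 8 other genes of the family, 5 were tested, and Kera, Optc and Nyx were not. Of these 5, 1 rose and 2 fell with bleomycin, 2 rose and 1 fell with doxorubicin, and 2 rose and 1 fell with IL-1β. Beside these, 27.9%, 25.4% and 24.5% of all genes rose and 19.0%, 22.8% and 18.4% fell. Podn rose with bleomycin (0.62 ± 0.12, adjusted p = 0.000518) and doxorubicin (0.53 ± 0.12, adjusted p = 0.00177). Tsku fell with bleomycin (-0.60 ± 0.12, adjusted p = 0.000722). Podnl1 fell with bleomycin (-0.42 ± 0.09, adjusted p = 0.000797) and doxorubicin (-0.50 ± 0.09, adjusted p = 0.000157). Tsku (1.08 ± 0.12, adjusted p = 2.28e-06) and Podnl1 (1.03 ± 0.09, adjusted p = 6.26e-08) rose with IL-1β, opposite to Lum, Fmod and Bgn.

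Markers of other cells moved with the same treatments. Summed FPKM of 7 stromal fibroblast markers, which include Pdgfra, Thy1 and Dpt, was 74.3 to 87.3 with bleomycin, 83.7 to 119 with doxorubicin and 32.3 to 43.1 with IL-1β, against 59.8 to 74.8 with vehicle. Of the 6 of these that were tested, 3 rose with bleomycin, 5 rose with doxorubicin and 4 fell with IL-1β, while Pi16 was under 1 FPKM throughout. With bleomycin 2 of the 6 rose under median-of-ratios or quantile scaling and 4 on the TPM scale, where 6 fell with IL-1β. Marker counts are to be read against the shares over all genes. These were 27.9% up and 19.0% down with bleomycin, 25.4% and 22.8% with doxorubicin, and 24.5% and 18.4% with IL-1β. The 6 adipocyte markers summed to 72.9 to 84 with bleomycin, 153 to 200 with doxorubicin and 367 to 405 with IL-1β, against 35.7 to 41.3 with vehicle. All 6 rose with both drugs, though only 5 with doxorubicin after quantile normalization. Adipoq was 4.06 FPKM with bleomycin, 13.9 with doxorubicin and 0.0429 with IL-1β, against 0.104 with vehicle. With IL-1β 3 of the 6 rose (Fabp4, Lpl and Pparg), Adipoq, Plin1 and Cfd did not pass, and most of the sum was Fabp4, at 367 FPKM with IL-1β against 31.3 with vehicle. Tendon markers summed to 24.8 to 33.6 with bleomycin, 37.5 to 47.5 with doxorubicin and 23.4 to 31.5 with IL-1β, against 52 to 67.1 with vehicle, and smooth muscle markers to 160 to 203, 315 to 383 and 152 to 216 in those groups, against 317 to 455 with vehicle. Of the 4 tendon markers tested, 2 fell and 2 did not pass with each drug, and 3 fell and 1 did not pass with IL-1β. Scx averaged 13.9 FPKM with bleomycin, 14.1 with doxorubicin and 14 with IL-1β, against 12.9 with vehicle. Osteoblast markers summed to 18.4 to 26.4 with bleomycin, 15.9 to 22.3 with doxorubicin and 19.5 to 25.2 with IL-1β, against 23.6 to 31.2 with vehicle. Of the 4 osteoblast markers tested, 1 rose, 2 fell and 1 did not pass with each treatment. The one that rose was Bglap, at 2.79 FPKM with bleomycin, 2.08 with doxorubicin and 5.61 with IL-1β, against 0.3 with vehicle. The 6 macrophage markers summed to 9.78 to 11.5 with bleomycin, 13.5 to 17.2 with doxorubicin and 14.4 to 16.3 with IL-1β, against 3.8 to 6.08 with vehicle. Both that were tested, the lysosomal genes Cd68 and Lyz2, rose in all 3 comparisons. The part of any of these cells in the levels of the 10 proteoglycan genes was not tested.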

How the data were processed

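The authors deposited FPKM values per gene, 1 table of 55450 genes for each of 16 libraries. Libraries were made with a TruSeq Stranded mRNA kit, per the labels' protocols, and Trimmomatic, STAR and the build GRCm38 are named, without versions, per the submitters' processing notes. The FPKM tool, annotation and strand setting are not given in the sources used here. Low values came out as whole fragments (tolerance 0.1) in only 66.9% to 70.9% of cases, so no count test was run; replicates of a group shared at most 0.0085% equal values.

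Values were analysed as log2(FPKM + 1), which understates changes of low genes, for 12976 genes that reached 1 FPKM in 4 or more libraries. A single limma 3.58.1 fit (R 4.3.3, mean-variance trend) used all 16 libraries, with 12 residual degrees of freedom. P-values were adjusted by Benjamini-Hochberg over all genes tested; changed means adjusted p under 0.05, and 2-fold a log2 difference of at least 1. Coordinates come from GENCODE M21 (GRCm38). Python 3.11.15, scipy 1.17.1, pandas 2.3.3, numpy 2.4.6 and matplotlib 3.10.9 were used, and the fit was tested on simulated data. All 10 genes are named in every comparison. Of each pathway list, at most 3 changed genes with the largest log2 difference per comparison were chosen, and some of these are given in further comparisons. For the 4 genes of widest range, the 3 genes of nearest pattern are named. Alternatives were 3 scalings, 2 pseudocounts, 2 filters, no trend, the 2 groups alone, a replicate block and leaving out each library. Members and lists were chosen with earlier results of these data known.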

Additional observations from a re-analysis of the deposited data

Results flagged for a closer look

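Of 40 groups of 4 values (10 genes in 4 groups), 2 had a library far from the others by Dixon's ratio, where chance marks about 1 in 20. Omd was 43.1 FPKM in bleomycin replicate 4, with the other bleomycin libraries at 24.7 to 27.6 (ratio 0.845). That library also had the highest Ogn and Aspn of its group. Without it, Omd still rose with bleomycin (log2 difference 0.86). Fmod was 632 FPKM in doxorubicin replicate 1, with the others at 648 to 649 (ratio 0.94), a gap that is small beside the difference from vehicle.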

How the results depend on the processing

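Of 60 gene-by-comparison results, 48 kept their direction and side of the threshold under all 10 settings and all 16 leave-one-out fits, and the counts of changed genes stayed within 1.5 times. Chad gave no value under the 5 FPKM filter. Leaving out 1 library gave 8 to 9 changed genes for bleomycin, 8 to 9 for doxorubicin and 7 for IL-1β against vehicle, 2 to 3 for bleomycin against doxorubicin, 8 to 9 for bleomycin and 9 to 10 for doxorubicin against IL-1β. Directions that turned were of genes that had not passed. Chad with bleomycin was -0.05 with median-of-ratios and -0.08 with quantile scaling (-0.13 to 0.15 leaving out a library). Prelp with IL-1β was -0.29 on the TPM scale and -0.01 after quantile scaling, and Epyc for bleomycin minus IL-1β was 0.22 on the TPM scale (adjusted p = 0.0276, a call as higher) and -0.19 with median-of-ratios scaling (adjusted p = 0.0388, a call as lower). Leaving out a library, Aspn for bleomycin minus doxorubicin ran from -0.03 to 0.28 and Chad for bleomycin minus IL-1β from -0.01 to 0.27. The causes were not tested. Aspn with doxorubicin ran from -0.68 to -0.43. The labels do not say that a replicate number marks a shared source, so the main fit and the ratio tests did not treat the libraries as paired. Deviations of 24 same-numbered pairs correlated at -0.023 to 0.214 (median 0.052, 6 over 0.1), beside -0.195 to 0.099 (median -0.023) for 72 other pairs, and 11 of 16 libraries correlated best with their own number, a hint from the data, not the design. With the replicate block, Lum for bleomycin minus doxorubicin (-0.25, adjusted p = 0.00617, 4 genes in place of 3) and Chad (0.31) for doxorubicin minus IL-1β gained calls. The low levels of Aspn and Chad limit their precision.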
